A study of Mus musculus with 9 samples.

Results

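The genes described here are 9 members of the JAK-STAT pathway: the transcription factors Stat2, Stat3, Stat4, Stat5a, Stat5b and Stat6, and the Janus kinases Jak1, Jak2 and Tyk2. They were taken by gene symbol from a table of 20732 genes, and the set was drawn up with earlier results of these data known. All 9 had enough reads to be tested. In group 2 innate lymphoid cells (ILC2s) sorted from mouse pancreas, 1 of the 9 passed the test after IL-33 treatment, against 25.2% of all genes tested: Stat2 was lower, by 1.08 on the log2 scale. Its groups overlapped, and the call held in only 3 of the 9 fits that left out 1 library. None of the 9 passed in the higher direction. Among the genes around them in the pathway, 7 of 13 tested cytokine genes were higher, against 13.7% of all genes. Of 27 tested cytokine receptor genes 10 were lower, against 11.6% of all genes, and 3 with libraries scaled by their size alone.

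Cytokine receptors of this pathway have no kinase of their own and bind Janus kinases on their inner tails. When a cytokine joins the receptor chains, the kinases phosphorylate the receptor and then STAT proteins, which pair, enter the nucleus and bind DNA. In ILC2s, IL-7, IL-2 and TSLP act mainly through STAT5, and IL-4 and IL-13 through STAT6. IL-33 itself binds ST2, a receptor of the IL-1 family that signals through MyD88 and not through a Janus kinase. STAT proteins are switched on by phosphorylation, which RNA counts do not measure.

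The C57BL6/J mice received either PBS, the vehicle, or 200 ng of IL-33, on days 0 and 1. Pancreata were taken on day 5, and live CD45+ CD3- B220- Lineage- KLRG1+ cells were sorted. There were 4 PBS libraries, titled naïve, and 5 IL-33 libraries, from 5 to 15 ng of RNA each. Sample titles and treatment labels, which were followed, gave these numbers, whereas the series text lists 5 mice with PBS and 4 with IL-33. No label ties a library to its own mouse, and p-values therefore measure only how far the libraries lie apart. Values after ± are SDs over these 4 and 5 libraries. In bulk RNA, fewer cells of a type and less RNA per cell cannot be told apart.

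Libraries held 14216976 to 21020023 counts over genes. All 10 ILC2 markers checked were detected, with Gata3, the factor that defines these cells, at 2988 to 6803 CPM (counts per 1e6 of the library total). Transcripts of 26 genes of pancreatic acinar cells were also present. They took 39.4% of the counts in PBS replicate 4, 0.123% to 7.08% in the other PBS libraries, and 0.344% to 11.3% in the IL-33 libraries. CPM values here use library sizes scaled by the trimmed mean of M-values (TMM), whose factor was 0.532 in PBS replicate 4 and 0.990 to 1.17 elsewhere. Summed erythroid markers were at 168 to 323 CPM in PBS and 369 to 3568 CPM in IL-33 libraries. Summed mast cell markers, mostly Cpa3, were at 15.4 to 45.8 CPM in PBS and 94.2 to 357 CPM in IL-33 libraries. Summed T cell markers were at 601 to 721 CPM in PBS and 558 to 773 CPM in IL-33 libraries. Most of this was Trbc2 (391 and 390 CPM on average, not called) and Cd3g (255 and 281 CPM, not called), while Cd8b1 stayed under 1 CPM in all libraries. Summed B cell markers were at 423 to 577 and 177 to 439 CPM, mostly Ighm, which fell from 478 to 156 CPM (edgeR adjusted p = 0.00482). Cd79b rose from 16.4 to 74.8 CPM (adjusted p = 0.0146), and Ms4a1 stayed under 1 CPM in all libraries. Summed endothelial markers ranged from 45.9 to 330.4 and from 24.2 to 84.7 CPM, and endocrine markers from 0.253 to 304 and from 0 to 13.9 CPM. Those of natural killer cells, myeloid cells and fibroblasts stayed under 70 CPM in all libraries. Fits that account for acinar transcripts are given for Stat2, and the part of the other cell types in the results below was not tested.

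Jak1, which serves the common gamma chain, interferon and gp130 receptors, had the highest level per exon length of the 9 genes. It stood at 631, 664, 490.3 and 444 CPM in the 4 PBS libraries and at 427, 404, 525, 493 and 507 CPM in the 5 IL-33 libraries. The groups overlapped, although the 2 highest libraries were both PBS. Its log2 change was -0.24 (SE 0.14, 95% interval -0.56 to 0.08), with an adjusted p of 0.250 in edgeR's quasi-likelihood test.

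Jak2, the kinase of receptors such as those for IL-3, IL-5 and GM-CSF, was at 164, 191, 145 and 91.2 CPM in PBS and at 206, 106, 173, 185 and 196 CPM in IL-33 libraries. Each group held 1 low library, PBS replicate 4 and IL-33 replicate 2, and the groups overlapped. Its log2 change was 0.23 (SE 0.24, 95% interval -0.31 to 0.77; edgeR adjusted p = 0.523).

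Tyk2, the partner kinase of the type I interferon, IL-12 and IL-10 receptors, was at 72.2, 58.8, 27.0 and 41.7 CPM in PBS. In IL-33 libraries it was at 67.8, 45.1, 43.6, 49.4 and 49.3 CPM. The PBS values spanned the whole range of the IL-33 values. Its log2 change of 0.03 (SE 0.27, 95% interval -0.57 to 0.64; edgeR adjusted p = 0.945) was -0.01 with DESeq2's size factors and 0.10 with library size alone.

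Stat3, the main factor downstream of IL-6, IL-10 and related cytokines, was at 245, 223, 295 and 246 CPM in PBS and at 180.1, 212, 259, 263 and 270.2 CPM in IL-33 libraries. IL-33 replicates 1 and 2 lay below every PBS library and the other 3 lay among them. The estimate was -0.09 on the log2 scale (SE 0.14, 95% interval -0.41 to 0.23; edgeR adjusted p = 0.676), and it was 0.04 with library size alone.

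Stat6, which carries the IL-4 and IL-13 signal, was at 63.3, 69.6, 82.9 and 108 CPM in PBS and at 66.1, 55.7, 68.4, 72.4 and 87.7 CPM in IL-33 libraries. The groups overlapped, and the highest value was that of PBS replicate 4, the library with the most acinar transcripts. On the log2 scale the estimate was -0.21 (SE 0.19, 95% interval -0.62 to 0.21; edgeR adjusted p = 0.447), and it was 0.00 with library size alone.

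Stat4, the factor of the IL-12 receptor, was at 76.4, 75.8, 60.1 and 33.6 CPM in PBS and at 57.2, 34.1, 50.2, 34.3 and 48.4 CPM in IL-33 libraries. PBS replicates 1, 2 and 3 lay above every IL-33 library, and PBS replicate 4 lay below them all. The log2 estimate was -0.46 (SE 0.26, 95% interval -1.04 to 0.13; edgeR adjusted p = 0.235). Without PBS replicate 4 it was -0.67, with an adjusted p of 0.0403.

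Stat5a and Stat5b are neighbouring paralogs that carry the IL-2, IL-7, TSLP and IL-5 signals. On GRCm38 they lie at chr11:100859351-100885169 (plus strand) and chr11:100780731-100850724 (minus strand), 8626 bases apart. Their coding sequences, of 2382 and 2361 bases, were identical at 90.7% of 2346 aligned bases. The longest identical run, 324 bases, covers coding positions 571 to 894 in both genes, counted from the first base of the start codon. Of the 150-base windows in each transcript, 4.12% for Stat5a and 3.25% for Stat5b were shared with the other gene. The stretches below show both extremes, 5′ to 3′ on the coding strand, with the bases that differ between the genes in capitals. Coding positions 556 to 645 hold 1 difference, at the edge of the identical run.
Stat5a: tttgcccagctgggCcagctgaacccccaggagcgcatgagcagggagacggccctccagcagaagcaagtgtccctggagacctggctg
Stat5b: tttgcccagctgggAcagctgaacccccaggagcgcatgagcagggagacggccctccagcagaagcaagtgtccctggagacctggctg
Coding positions 88 to 177 hold 28 differences, the most of any stretch of this length.
Stat5a: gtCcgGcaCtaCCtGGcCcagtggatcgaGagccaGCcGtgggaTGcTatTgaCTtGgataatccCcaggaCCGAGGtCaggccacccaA
Stat5b: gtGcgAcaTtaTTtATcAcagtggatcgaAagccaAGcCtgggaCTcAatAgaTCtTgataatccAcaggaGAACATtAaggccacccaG

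Stat5a was at 17.1, 32.1, 27.6 and 11.4 CPM in PBS and at 33.1, 44.7, 16.5, 32.6 and 39.4 CPM in IL-33 libraries. IL-33 replicates 1, 2, 4 and 5 lay above all PBS libraries, and IL-33 replicate 3 lay among the low ones. Its log2 change was 0.59 (SE 0.36, 95% interval -0.21 to 1.39; edgeR adjusted p = 0.259). Stat5b was at 27.1, 26.5, 46.5 and 27.6 CPM in PBS and at 43.0, 44.5, 41.4, 51.5 and 41.4 CPM in IL-33 libraries. PBS replicate 3 lay among the IL-33 libraries, and the other PBS libraries lay below them all. Its log2 change was 0.47 (SE 0.20, 95% interval 0.03 to 0.92; edgeR adjusted p = 0.111). Without PBS replicate 3 it was 0.71, with an adjusted p of 0.00928. How reads from the identical run were shared out between the genes is not given in the sources used here, so the split between them is uncertain.

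Stat2, which works with IRF9 downstream of type I interferons, was the member that passed the test. It was at 30.4, 14.6, 12.0 and 26.4 CPM in PBS and at 9.78, 8.07, 14.2, 7.15 and 10.2 CPM in IL-33 libraries. PBS replicates 1 and 4 were high, and the groups overlapped, because IL-33 replicate 3 lay above PBS replicate 3. Means were 20.8 ± 8.95 CPM (SD, n = 4) and 9.88 ± 2.71 CPM (SD, n = 5). The log2 change was -1.08 (SE 0.33, 95% interval -1.81 to -0.34), with an adjusted p of 0.0387 in edgeR's test.

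The Stat2 call held in 3 of the 9 fits that left out 1 library. Without PBS replicate 1 the log2 change was -0.83 (edgeR adjusted p = 0.119), and without PBS replicate 4 it was -0.95 (adjusted p = 0.0813). Leaving out IL-33 replicate 1, 2, 4 or 5 gave adjusted p-values of 0.0736, 0.0888, 0.0765 and 0.0736 in the same test. The call held without PBS replicate 2 (-1.21, adjusted p = 0.0436), PBS replicate 3 (-1.27, adjusted p = 0.0206) or IL-33 replicate 3 (-1.24, adjusted p = 0.0300). The direction was lower in all 9 of these fits. With the acinar share of each library as a covariate, the log2 change was -1.01 (adjusted p = 0.0612), and with acinar genes removed it was -1.08 (adjusted p = 0.0388).

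Genes that answer interferon often hold an element of TTTC, any 2 bases and TTTC again, bound by the complex that holds STAT2 and IRF9, near their start. RefSeq's promoter of Stat2, from 250 bases before to 50 after the gene start (GRCm38.p6, chr10:128270248-128270547, plus strand), held it once, with its first base at -222. It is shown because Stat2 is the member that passed the test, with the match in capitals.
Stat2: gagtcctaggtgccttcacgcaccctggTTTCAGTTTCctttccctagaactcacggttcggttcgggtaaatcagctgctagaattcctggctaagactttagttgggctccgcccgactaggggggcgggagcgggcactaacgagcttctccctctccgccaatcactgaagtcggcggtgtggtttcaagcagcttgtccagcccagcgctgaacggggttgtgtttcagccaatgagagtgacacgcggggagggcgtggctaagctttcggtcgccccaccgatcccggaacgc
Both strands were searched, and 3.44% of 32851 RefSeq promoters of this length held the motif. All 9 genes had promoters in the table, 12 in all, and 2 of the 12 held it, those of Stat2 and of Stat4. A match is a description of the letters and not a shown binding site.

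**Figure D1:**
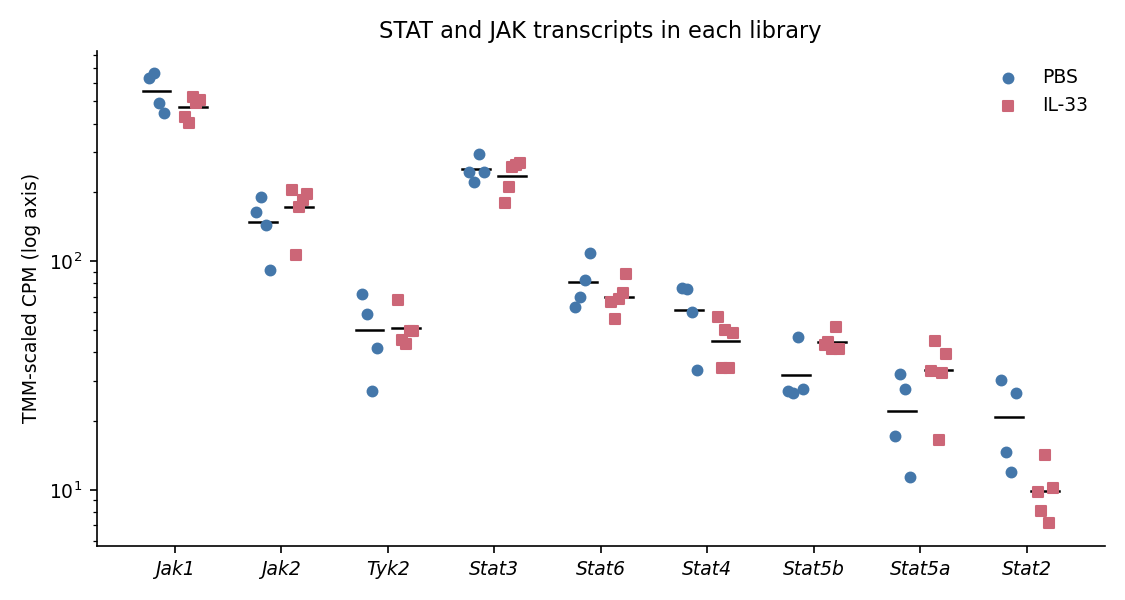
Levels of the 9 genes in each library, in CPM on a log axis, with circles for the 4 PBS and squares for the 5 IL-33 libraries and a bar at each group's mean. The groups overlap for each of the 9 genes, Stat2 included.

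Of the 9 genes, 1 passed the test in either direction, against 25.2% of the 14405 genes tested. None was higher, against 13.7% of all genes, and 1 was lower, against 11.6%. Of all calls, 54.1% were higher, a share that was 67.4% with library size alone. None of the 9 had groups that did not overlap, against 26.1% of all genes. The median log2 change was -0.09 over the 9 and -0.05 over all genes tested.

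**Figure D2:**
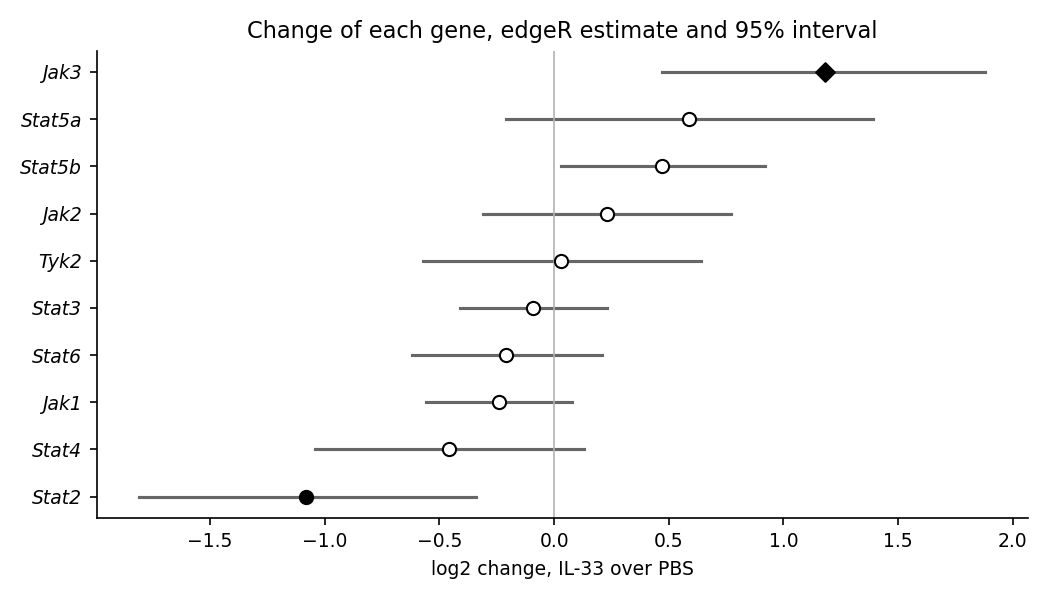
Log2 change, IL-33 over PBS, of the 9 genes (circles) and of Jak3 (diamond), with 95% intervals from edgeR, filled where the adjusted p was below 0.05. The interval of Stat2 lies below 0, from -1.81 to -0.34, and those of 7 members span 0.

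Beside the 9 genes, Jak3 was read from the same test. Jak3, the kinase bound to the common gamma chain, was at 17.2, 30.6, 28.5 and 42.5 CPM in PBS and at 56.5, 83.5, 35.5, 80.3 and 79.5 CPM in IL-33 libraries. Only IL-33 replicate 3 fell within the PBS range. The log2 change was 1.18 (SE 0.32; edgeR adjusted p = 0.0227). Without PBS replicates 1, 2 and 3 in turn the adjusted p was 0.0522, 0.0565 and 0.0516, and without IL-33 replicates 2, 4 and 5 it was 0.0535, 0.0557 and 0.0505. With a block for each replicate number the edgeR adjusted p was 0.0607, at a log2 change of 1.1.

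Levels were compared between genes as CPM per kilobase of exon (RPKM). In PBS libraries the order was Jak1 (77.1 ± 14.8 RPKM, SD, n = 4), Jak2 (29.4 ± 8.39), Stat3 (26.5 ± 3.19), Stat6 (18.4 ± 4.51), Stat4 (15.9 ± 5.18), Tyk2 (7.27 ± 2.87), Stat5b (5.76 ± 1.76), Stat2 (3.52 ± 1.51) and Stat5a (3.09 ± 1.33). Only Jak1 lay above the next gene without overlap between libraries. In IL-33 libraries Jak1 was again first, at 65.2 ± 7.30 RPKM (SD, n = 5), followed by Jak2 at 34.5 ± 7.84. Stat2 was last there, at 1.67 ± 0.457 RPKM, below Stat5a at 4.66 ± 1.49. Lengths changed this order: with the principal transcript alone, Stat3 came second at 55.9 RPKM in PBS and Jak2 followed at 29.4. Stat2 was then last in both groups, at 4.74 RPKM in PBS and 2.25 RPKM in IL-33 libraries.

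Within the Janus kinases, the mixture of transcripts was compared as each gene's share of the summed RPKM of Jak1, Jak2, Jak3 and Tyk2. Jak1 made up 64.7% ± 0.905 (SD, n = 4) of it in PBS libraries, between 63.8% and 65.6%. In IL-33 libraries it made up 54.6% ± 4.21 (SD, n = 5), between 49.1% and 60.5%. The groups did not overlap. The difference of -10.1 percentage points had an exact two-sided permutation p of 0.0159, the smallest this design allows, and 0.106 after adjustment over 10 shares, so it did not pass the correction. The share of Jak3 was 4.97% in PBS and 10.6% in IL-33 libraries, and that of Jak2 was 24.3% and 28.5% (exact permutation p = 0.0317 and 0.190, adjusted 0.106 and 0.317). The share of Tyk2 was at 3.72% to 7.86% in PBS and at 5.29% to 8.20% in IL-33 libraries.

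Shares of the STAT transcripts were taken over the summed RPKM of the 6 STAT genes described here. Stat3 had the largest share in both groups, 36.1% in PBS and 37.2% in IL-33 libraries, and Stat6 held 25.2% and 23.7%. Stat5b held 7.80% ± 1.84 (SD, n = 4) in PBS and 12.1% ± 1.63 (SD, n = 5) in IL-33 libraries (exact permutation p = 0.0317, adjusted 0.106). Stat2 held 4.87% and 2.50% (exact permutation p = 0.0794, adjusted 0.190). None of the 10 shares passed the correction.

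**Figure D3:**
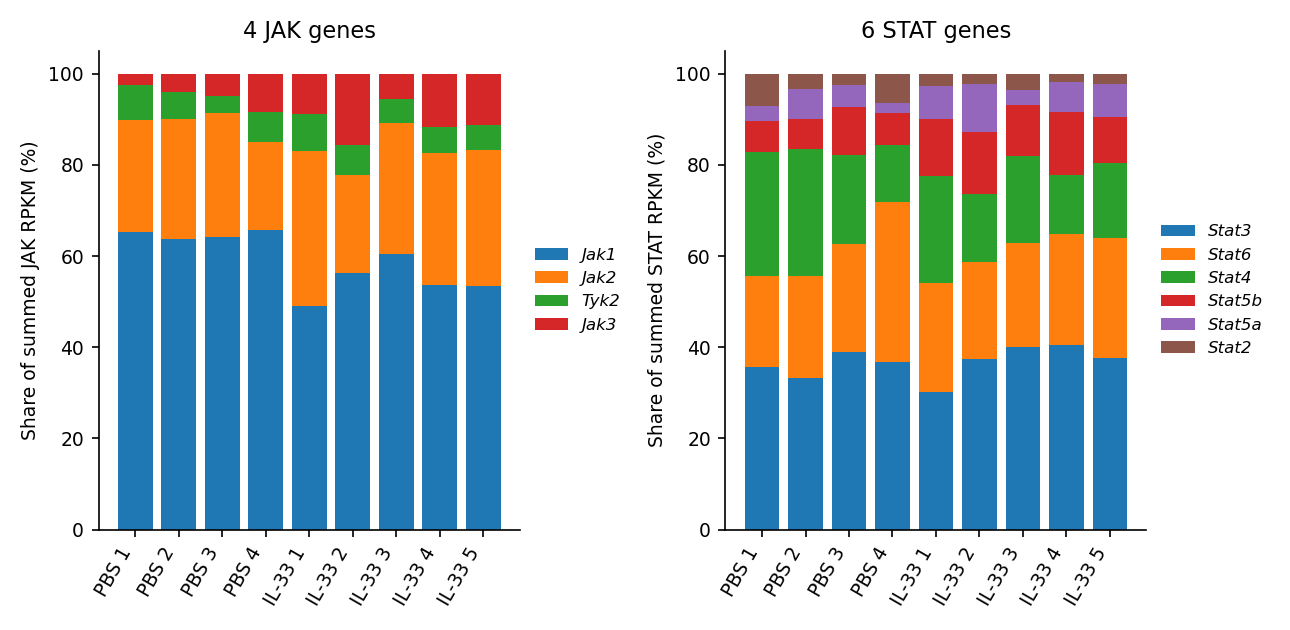
Share of each gene in the summed RPKM of the 4 Janus kinases and of the 6 STAT genes, in percent, as 1 stacked bar per library. Jak1 takes 63.8% to 65.6% of its family in the PBS libraries and 49.1% to 60.5% in the IL-33 libraries.

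Ratios of counts within a library do not depend on the scaling between libraries. The log2 ratio of Jak2 to Jak1 counts was -1.94, -1.80, -1.76 and -2.28 in PBS and -1.05, -1.93, -1.60, -1.41 and -1.37 in IL-33 libraries. All IL-33 libraries but replicate 2 lay above all PBS libraries. The difference was 0.47 (exact two-sided permutation p = 0.0476, adjusted over 4 ratios 0.190), so it did not pass the correction either. The other ratios were close between groups beside their spread. The mean log2 ratio of Stat5a to Stat5b was -0.60 ± 0.64 (SD, n = 4) in PBS and -0.49 ± 0.54 (SD, n = 5) in IL-33 libraries. That of Stat4 to Stat6, factors of opposed type 1 and type 2 signals, was -0.44 ± 0.89 and -0.66 ± 0.34. That of Tyk2 to Jak1 was -3.55 ± 0.45 and -3.22 ± 0.35. Their adjusted exact permutation p-values were 0.778, 0.778 and 0.635.

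**Figure D4:**
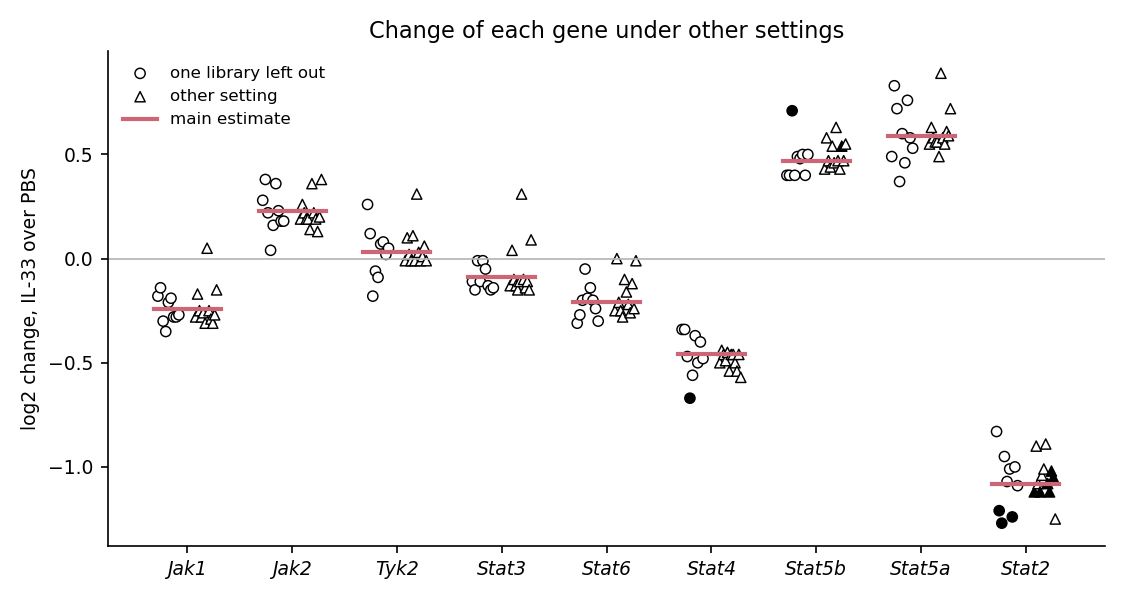
Log2 change of each of the 9 genes when 1 library is left out (circles) and under other settings (triangles), filled where the adjusted p was below 0.05, with the reported value as a red line. Stat2 stays between -1.27 and -0.83 and is filled in part of the settings, and Tyk2 lies on both sides of 0.

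Cytokines that signal through these kinases were described next. The gene lists that follow were put together with results of these data known, and they share genes with each other. Of 13 ligand genes tested, 7 were higher and 2 lower, against 13.7% and 11.6% of all genes. Their median log2 change was 1.30, and that of all genes tested was -0.05. Il13, whose product acts through STAT6, rose from 98.1 ± 35.3 to 1733 ± 559 CPM, a log2 difference of 4.14 (edgeR adjusted p = 1.19e-04). Il5, the eosinophil growth factor, rose from 356 ± 23.9 to 1675 ± 429 CPM. Il3, Il4, Il6, Il10 and Csf2 were the other genes called higher. Il10 was at 0 to 0.0603 CPM in PBS and at 2.43 to 15.0 CPM in IL-33 libraries. Only the IL-33 libraries gave Il10 enough reads to be tested. Lif, a gp130 ligand, fell from 373 ± 78.9 to 79.3 ± 20.7 CPM, and Il2 from 43.1 ± 7.16 to 10.8 ± 2.81 CPM. The groups did not overlap for Il13, Il5, Lif and Il2, against 26.1% of all genes. These 4 were picked by smallest adjusted p, which favours groups that lie apart.

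Of 27 receptor genes tested, 1 was higher, 10 were lower and 16 did not pass. Of all genes tested, 13.7% were higher and 11.6% lower. The median log2 change of the receptor genes was -0.81. Il6ra, 1 of the 10 called lower, was at 1.87 to 9.34 CPM in PBS and at 0 to 0.831 CPM in IL-33 libraries. It had enough reads to be tested through the PBS libraries. Il6st, which encodes gp130, fell from 59.2 ± 7.51 to 6.77 ± 4.61 CPM, a log2 difference of -3.13 (edgeR adjusted p = 0.00155). Il7r, the IL-7 and TSLP receptor chain, fell from 652 ± 140 to 269 ± 67.4 CPM. Il2rg, the common gamma chain that binds JAK3, fell from 2151 ± 650.2 to 1105 ± 341 CPM, and Il2ra from 529 ± 107 to 361 ± 62.8 CPM. Of the interferon receptor genes, Ifnar1, Ifnar2 and Ifngr2 were lower, and Ifngr1 did not pass (log2 change -0.54, edgeR adjusted p = 0.106). Ifnar1 fell from 264 ± 33.7 to 131 ± 30.6 CPM. The receptor gene called higher was Il12rb1, the chain that binds TYK2, which rose from 18.4 ± 5.24 to 52.9 ± 12.6 CPM. With library size alone 2 receptor genes were higher and 3 lower, and without IL-33 replicates 1, 2 and 3 together 1 was higher and 3 lower.

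Of 21 inhibitor genes tested, 0 were higher and 5 lower (Cbl, Cish, Pias1, Socs2 and Socs7), against 13.7% and 11.6% of all genes. Their median log2 change was -0.46. Socs2 fell from 223 ± 46.8 to 93.4 ± 17.6 CPM, and Cish, which STAT5 induces and which restrains it in turn, from 195.0 ± 15.4 to 108 ± 23.7 CPM (edgeR adjusted p = 0.00124 and 0.00483). Socs1, an inhibitor of interferon signals, was at 72.3 ± 39.2 CPM in PBS and 36.0 ± 10.1 CPM in IL-33 libraries (edgeR adjusted p = 0.0801). Socs3, an inhibitor of gp130 signals, was at 18.2 ± 18.2 and 18.7 ± 2.84 CPM (adjusted p = 0.963). With library size alone 1 of the inhibitor genes was lower, and 2 were without IL-33 replicates 1, 2 and 3. The promoter of Cish (RefSeq, GRCm38.p6, chr9:107296409-107296708, plus strand) is printed because Cish is a classical STAT5 target. It held the STAT element TTCNNNGAA 2 times, in capitals, with first bases at 0 and 11 counted from the gene start.
Cish: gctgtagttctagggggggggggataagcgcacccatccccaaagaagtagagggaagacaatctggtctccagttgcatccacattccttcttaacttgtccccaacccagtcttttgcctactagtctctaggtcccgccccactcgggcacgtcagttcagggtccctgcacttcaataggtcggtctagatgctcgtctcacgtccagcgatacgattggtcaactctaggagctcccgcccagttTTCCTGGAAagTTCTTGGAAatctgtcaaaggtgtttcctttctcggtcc
Of the 32851 promoters, 8.30% held TTCNNNGAA, and none of the 12 promoters of the 9 genes did.

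Known targets of each STAT factor were counted in the same way. The lists were of targets known in lymphocytes for STAT5, in lymphocytes or macrophages for STAT6 and in type 1 lymphocytes for STAT4. Of 12 STAT5 targets, 1 was higher and 7 lower, against 13.7% and 11.6% of all genes. Their median log2 change was -0.62. Bcl2, a survival gene, fell from 182 ± 45.4 to 48.9 ± 6.78 CPM, and Ccnd2, cyclin D2, from 1038 ± 166 to 369 ± 74.1 CPM (edgeR adjusted p = 1.65e-04 and 3.24e-04). Il2ra, Mcl1, Pim1, Cish and Socs2 were also lower. The target called higher was Bcl2l1, which encodes BCL-XL and rose from 81.7 ± 17.9 to 141 ± 22.5 CPM. With library size alone 2 of the STAT5 targets were higher and 3 lower, and without IL-33 replicates 1, 2 and 3 these counts were 0 and 3.

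Of 7 STAT6 targets tested, 3 were higher (Arg1, Pparg and Retnla) and 0 lower, against 13.7% and 11.6% of all genes. The median log2 change of the 7 was 0.91. The other 4 did not pass, and their estimates went both ways. Those of Socs1, Il4ra and Gata3 were negative (edgeR adjusted p = 0.0801, 0.132 and 0.654). That of Ccl17, at 1.22 CPM or less in all libraries, was positive (adjusted p = 0.696). Its estimate of 0.91 is itself the median of the list, which therefore rests on a gene with few reads. Arg1, arginase 1, rose from 1014 ± 144 to 2361 ± 648 CPM, and Pparg from 38.7 ± 8.85 to 81.9 ± 18.8 CPM (edgeR adjusted p = 0.00283 and 0.00625). With a block for each replicate number both calls were lost (edgeR adjusted p = 0.0527 and 0.0663). The number of STAT6 targets called higher was then 1, and it stayed 3 with library size alone. Retnla rested on few libraries: it ranged from 0 to 0.668 CPM in PBS and from 0.663 to 90.3 CPM in IL-33 libraries. Without PBS replicate 1, PBS replicate 2 or IL-33 replicate 4 its adjusted p was 0.0538, 0.0568 and 0.0548.

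Of 11 STAT3 targets tested, 2 were higher and 5 lower, against 13.7% and 11.6% of all genes. Their median log2 change was -0.36. Batf, a factor of the AP-1 family, rose from 71.5 ± 9.51 to 209 ± 28.8 CPM, and Fos fell from 3033 ± 336 to 1119 ± 185 CPM (edgeR adjusted p = 1.2e-04 and 1.75e-04). Cebpb, a C/EBP family factor, fell from 14.9 ± 7.34 to 2.65 ± 1.08 CPM (adjusted p = 0.00316). With library size alone 1 of the STAT3 targets was higher and 3 lower, and without IL-33 replicates 1, 2 and 3 these counts were 1 and 2. Of 5 STAT4 targets tested, 1 was higher and 0 lower, against 13.7% and 11.6% of all genes. The 1 was Il18rap, a chain of the IL-18 receptor, which rose from 58.1 ± 22.3 to 109 ± 20.3 CPM. Its adjusted p was 0.0337 and lay between 0.0548 and 0.0777 without PBS replicates 1 or 3 or IL-33 replicates 1, 3, 4 or 5.

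Of 16 interferon-induced genes tested, 0 were higher and 4 lower, against 13.7% and 11.6% of all genes. Their median log2 change was -0.71. Irf9, the DNA-binding partner of STAT2, fell from 40.9 ± 10.4 to 18.7 ± 6.13 CPM, a log2 difference of -1.13 (edgeR adjusted p = 0.0120). Irf1 fell from 148 ± 22.5 to 86.0 ± 15.9 CPM and Irf7 from 39.2 ± 17.6 to 15.3 ± 6.05 CPM. Gbp2 fell by 1.46 on the log2 scale, and its adjusted p was 0.0651 without PBS replicate 1. That of Irf7 was 0.0584 and 0.0634 without PBS replicates 3 and 4, and 0.0544, 0.0615 and 0.0548 without IL-33 replicates 1, 2 and 4. With library size alone 0 of these genes were lower, and 0 without IL-33 replicates 1, 2 and 3.

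**Figure D5:**
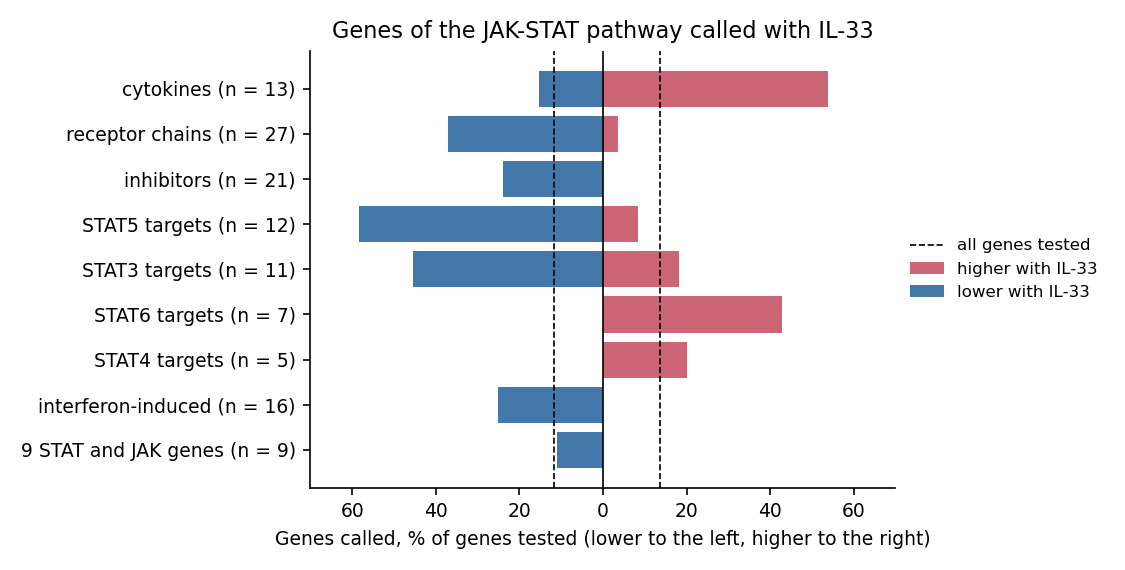
Share of the tested genes of each list called lower (left) and higher (right) in IL-33 libraries, in percent, with dashed lines at the share of all genes tested, 11.6% lower and 13.7% higher. The STAT5 targets, 7 of 12, reach furthest to the left, and the ligands, 7 of 13, furthest to the right.

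Across the 9 libraries, the genes whose log2 CPM was most like that of Stat2 were Zbtb1 (Pearson r = 0.965) and Rcor1 (r = 0.944), out of 8717 genes compared. The libraries share both groups, so a likeness partly restates the difference between them. Zbtb1, a zinc finger factor of lymphocytes, was at 40.7 ± 15.0 CPM in PBS and 21.4 ± 5.82 CPM in IL-33 libraries (edgeR adjusted p = 0.0479). Rcor1, a corepressor subunit, was at 64.9 ± 8.88 and 46.5 ± 6.42 CPM (adjusted p = 0.0422). Each of the 2 calls was lost in 7 of the fits that left out 1 library. For Zbtb1 the adjusted p was 0.137, 0.0848 and 0.0944 without PBS replicates 1, 2 and 4, and 0.0862, 0.106, 0.0922 and 0.0736 without IL-33 replicates 1, 2, 4 and 5. For Rcor1 it was 0.103, 0.0535 and 0.0798 without PBS replicates 1, 3 and 4, and 0.0792, 0.0934, 0.0735 and 0.0668 without IL-33 replicates 1, 2, 4 and 5. With the trend with exonic length removed, the log2 change of Zbtb1 went from -0.93 to -0.39, and that of Rcor1 from -0.48 to -0.31.

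The library kit is not stated to keep strand. Stat5a and Stat3 end tail to tail on chromosome 11 and share 72 bases of exon. Tyk2 shares 554 bases with 1700084C06Rik, which had 1 to 58 counts per library. These partners lie on opposite strands, and reads from their shared bases cannot be told apart without strand. Stat4 shares 1033 bases with Gm28177, which lies on the same strand and had 0 to 4 counts. Jak3 shares 404 bases with Insl3, which also lies on its strand and had 0 to 24 counts.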

How the data were processed

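RNA of sorted pancreatic ILC2s was sequenced as paired reads of 150 nt. The authors deposited raw counts per gene. They also deposited a normalized signal per gene, which equalled those counts divided by 1 factor per library for all 20732 genes, within 0.0006 plus 0.001% of the value. The build GRCm38.p6, STAR 2.7.7a and Salmon 1.6.0, along with Trimmomatic 0.39, FastQC 0.11.9, DESeq2 and Picard, are named without roles, per the submitters' processing notes. Columns were matched to libraries by title. No 2 libraries of the same group agreed within sampling noise.

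The main test was a robust quasi-likelihood F-test on group alone (edgeR 4.0.16, R 4.3.3). Low genes were removed by filterByExpr (minimum count 10), libraries were scaled by TMM, and p-values were adjusted by Benjamini and Hochberg's method over the 14405 genes left. The threshold was 0.05. DESeq2 1.42.0, limma 3.58.1 and other filters, scalings and left-out libraries were alternatives. Ratios (pseudocount of 0.5 counts) and shares used two-sided exact permutation tests in SciPy 1.17.1. RPKM used the exons of GENCODE M21; the principal transcript length and the left-out libraries for the Jak1 share were alternatives chosen after seeing the data. Identity was computed with Biopython 1.88. Symbols and lengths were found for 99.4% of genes. List genes without a row were not analysed here. Counts of the 9 genes ran from 119 to 12432 per library, which sets their counting error.

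The 9 genes and all lists were chosen with earlier results of these data known. Genes to be named were the 9 genes, Jak3, up to 4 called genes of each list by smallest adjusted p, the 2 most abundant genes of each cell type list, and the 2 genes most like each called member; of the cell type lists, the text gives summed levels and only some single genes. Il2rg, Il2ra, Ifnar2, Ifngr1, Ifngr2, Bcl2l1, Socs1, Socs3 and other genes beyond these were named after their values were seen.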

Additional observations from a re-analysis of the deposited data

Results flagged for a closer look

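In 28 groups of values checked for a sample far from its group, 2 were found, and chance flags about 1 in 20. Stat5b in PBS replicate 3, at 46.5 CPM, was separated from the other PBS libraries (26.5 to 27.6 CPM) by 0.947 of the group's range. Tyk2 in IL-33 replicate 1, at 67.8 CPM, was separated from the other IL-33 libraries (43.6 to 49.4 CPM) by 0.761 of the range. The cause was not tested for either.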

How the results depend on the processing

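Over all genes, 3633 passed the test. Library size alone gave 1976, a replicate block 1457, a threshold of 0.01 gave 1786, and leaving out IL-33 replicates 1, 2 and 3 together 1396, while leaving out 1 library gave 2676 to 3695. Library size alone moved the median log2 change of all genes from -0.05 to 0.08. The number of the 9 genes called lower was 0 with the threshold of 0.01, the acinar covariate, library size alone, a removed trend with exonic length, the replicate block, no filter, or without IL-33 replicates 1, 2 and 3, and 0 to 1 with 1 library left out. Without PBS replicate 4, the gene called lower was Stat4 and not Stat2. The number called higher was 1 with limma voom and 0 to 1 with 1 library left out. That gene was Stat5b, with an adjusted p of 0.0473 in limma voom and of 0.00928 in edgeR without PBS replicate 3. Directions changed for genes that did not pass the test. Tyk2 was -0.01 with DESeq2's size factors, a filter at 5 CPM, the acinar covariate, DESeq2's own test and without IL-33 replicates 1, 2 and 3, and it was -0.18 to 0.26 with 1 library left out. Stat3 was 0.04 with library size alone, 0.31 with the length trend removed and 0.09 without IL-33 replicates 1, 2 and 3. Stat6 was 0.00 with library size alone, and Jak1 was 0.05 with the length trend removed. With 1 library left out, the ratio difference was -0.11 to 0.41 for Stat5a to Stat5b, -0.64 to 0.02 for Stat4 to Stat6, 0.36 to 0.59 for Jak2 to Jak1 and 0.13 to 0.48 for Tyk2 to Jak1. The difference in the Jak1 share stayed between -11.56 and -8.70. The causes were not tested.

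Equal replicate numbers showed no sign of pairing: with group means removed, correlations of same-numbered libraries were -0.0301, -0.0564, -0.0299 and 0.067. So few pairs cannot decide whether same-numbered libraries shared a litter or a day. Under the replicate block, Stat2 was at -1.04 with an edgeR adjusted p of 0.176. Single pathway genes were followed through the alternatives for Jak3 and for up to 4 called genes of each list, those with the smallest adjusted p. Of these 26, 12 stayed called under all alternatives and 21 with each library left out in turn. Called genes named beyond these, such as Il2rg and Il2ra, are not in this count. With few libraries, the 95% intervals limit what could be detected among the 9 genes.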
